A study of Mus musculus with 7 samples.

Results

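The genes described here encode integrins, laminin chains, nidogens, the basement membrane proteoglycans perlecan (Hspg2) and agrin (Agrn), and dystroglycan (Dag1). They were taken by symbol from the deposited tables: rows that start with Itga or Itgb, without the integrin-binding proteins of the Itgb1bp, Itgb3bp and Itgbl1 names, the laminin chain genes, and Nid1, Nid2, Hspg2, Agrn and Dag1. This gave 39 of 21121 listed genes: 16 integrin alpha chains, 7 integrin beta chains, 5 laminin alpha, 3 laminin beta and 3 laminin gamma chains, and 5 other genes. Of these, 30 had enough reads to be tested. The other 9 (Itga2, Itga2b, Itga11, Itgae, Itgam, Itgb4, Itgb7, Lama2 and Lamc3) had no value above 2.56 in any library.

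The series followed lung epithelium of C57BL/6 mice, with no treatment or allele given, at embryonic day 13.5 (E13.5), E15.5, E18.5, postnatal day 14 (P14) and P56. Cells were sorted from digested lungs as living cells with Epcam, an epithelial surface protein, and without CD31, CD45, Ter119 or CD146. Amplified polyadenylated RNA was counted by 3' SAGE sequencing, in which a short tag near the 3' end stands for a transcript. There were 2 libraries each at E18.5 and P56, and 1 each at E13.5, E15.5 and P14. Whether 2 libraries of one stage derive from separate animals, pools or sorts is not stated in the labels. The p-values thus rest on the spread between these libraries, pooled in part over genes, and not on a known spread between animals. The epithelium was sorted as a whole, so its cell types were mixed in every library.

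The basement membrane is a thin sheet of matrix beneath every epithelium. Its laminins are trimers of an alpha, a beta and a gamma chain, which polymerise at the cell surface and are joined to the type IV collagen network by nidogens, perlecan and agrin. Integrins are receptors made of an alpha and a beta chain that tie this sheet, and other matrix, to the cell's actin or keratin filaments. Dystroglycan is a further laminin receptor, which binds through sugar chains on its outer subunit. In the lung, the laminin alpha5 chain and the laminin-binding alpha3 beta1 integrin are known to be needed for normal branching and for the shaping of the airspaces.

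Values below are scaled tag counts: the authors divided the counts of each library by 1 factor, and 1 read was worth 0.236 to 0.385 units in the 7 libraries. Depth was 2559927 to 3895740 reads per library. Epcam, Cdh1 and Nkx2-1, which check the sort, were present in every library, while Ptprc (CD45) had 0 to 4 reads and Cdh5, an endothelial cadherin, 0 to 3. Other markers of these cells had more. The summed value of 12 endothelial markers was 55.6 at E15.5 and 250 in the second P56 library, with Esam at 11.1 and 241. That of 11 immune markers was 6.82 and 3619 in the same libraries, with Lyz2, also a marker of alveolar type 2 cells, at 0.718 and 3612. Csf1r, an immune marker, had 81 reads at P14. How well a tag captures its transcript differs between genes, so genes were not ranked against each other, and sums over genes are given only to set libraries side by side. Tests were made with limma-trend on log2(value + 1) over 12964 genes, with a Benjamini-Hochberg adjusted p under 0.05 as the threshold. For stages with 1 library, the fit takes the spread from E18.5 and P56. The fit also draws the variance of each gene toward a trend over all genes tested, so an SE reflects other genes as well.

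Transcripts of several laminin chains, among them Lama5 and Lama3, and of the receptor chains Itga3 and Itga6 were highest at E18.5 and lower in the adult. Of the 30 tested members, 13 were higher at E18.5 than in the mean of E13.5 and E15.5, against 15.8% of all genes tested, and 4 were lower, against 13.4%. Without the E13.5 library, fewer members were called in each direction with limma and with edgeR. Calls over all genes tested fell as well, so the number of calls depends on that library and the loss is not particular to the members. Of the lower genes, Lama1 and Itgb8 then had too few reads to be tested, while Itgb5 and Nid2 had log2 changes of -1.13 and -1.40, beside -1.30 and -1.57 with all libraries, and were not called. At P56 against E18.5, 14 were lower, against 6.15% of all genes, and none was higher with limma, against 8.07%; the count of members higher at an unadjusted p under 0.05 was 3, and edgeR called 1. These comparisons share the E18.5 libraries, so they are not separate lines of evidence. The median log2 change over the tested members was 0.605 in the earlier comparison, beside 0.027 over all genes, and -0.989 at P56 against E18.5, beside 0.064. For 12 of the 30 the highest stage mean was at E18.5, which held for 19.5% of all genes tested, and for 4 it was at P56, against 21.7%. When genes with low values were kept in the fit, limma called 8 members higher at E18.5 and 8 lower at P56, 7 of each also called in the main fit. Over all genes that fit called 1352 higher at E18.5 and 324 lower at P56, beside 2043 and 797 in the main fit. In sorted bulk RNA, fewer cells of a type and less RNA per cell cannot be told apart.

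Markers of the alveolar cell types changed over the same steps. The summed value of 15 markers of alveolar type 1 cells, the thin cells of gas exchange, was 368 at E13.5 and 1372.5 at E15.5, 10942 and 12601 in the E18.5 pair, 8845.5 at P14, and 4100 and 4542 in the P56 pair. That of 13 markers of type 2 cells, which secrete surfactant, was 299.6, 2563, 13421 and 13432, 48770, and 59508 and 66131 in the same order. Aqp5, a type 1 marker, made up 1931 and 2181 of the type 1 sums in the E18.5 pair and 2545 and 3000 in the P56 pair. Of the type 1 markers 13 were called higher at E18.5 against the early stages and 13 lower at P56 against E18.5, and the part of cell makeup in the changes of the matrix genes was not tested. Mesenchymal markers summed to 2626 (E13.5), 1413 (E15.5), 289.9 and 318 (E18.5), 298 (P14), and 153 and 119 (P56), with Vim alone at 2564 and 1193 at the early stages. Of the 11 that were tested, 2 were higher and 2 lower at E18.5 against the early stages, and 1 was higher and 7 lower at P56 against E18.5. All 16 had a read in at least 1 library. Pdgfrb and Myh11 had 0 reads in 6 and 4 of the 7 libraries, Pdgfra had 0 to 2 reads, and Col1a1 had 60 and 110 reads in the E18.5 libraries and 4 and 2 in those of P56. Markers of mesothelium, the outer lining of the lung, summed to 1396 (E13.5), 2067 (E15.5), 8059 and 8828 (E18.5), 1116 (P14), and 965 and 848 (P56). Krt19, also a keratin of epithelia, made up 7505 and 8093 of the E18.5 sums and Msln 549 and 733, against 3.70 and 1.30 for Msln at P56, while Wt1 had 0 reads in both E18.5 and both P56 libraries. The part of mesenchymal and mesothelial RNA in the matrix transcripts was not tested.

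The plot of 16 members by stage shows the course of the laminins, their receptors and the linking proteins in every library.

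**Figure D1:**
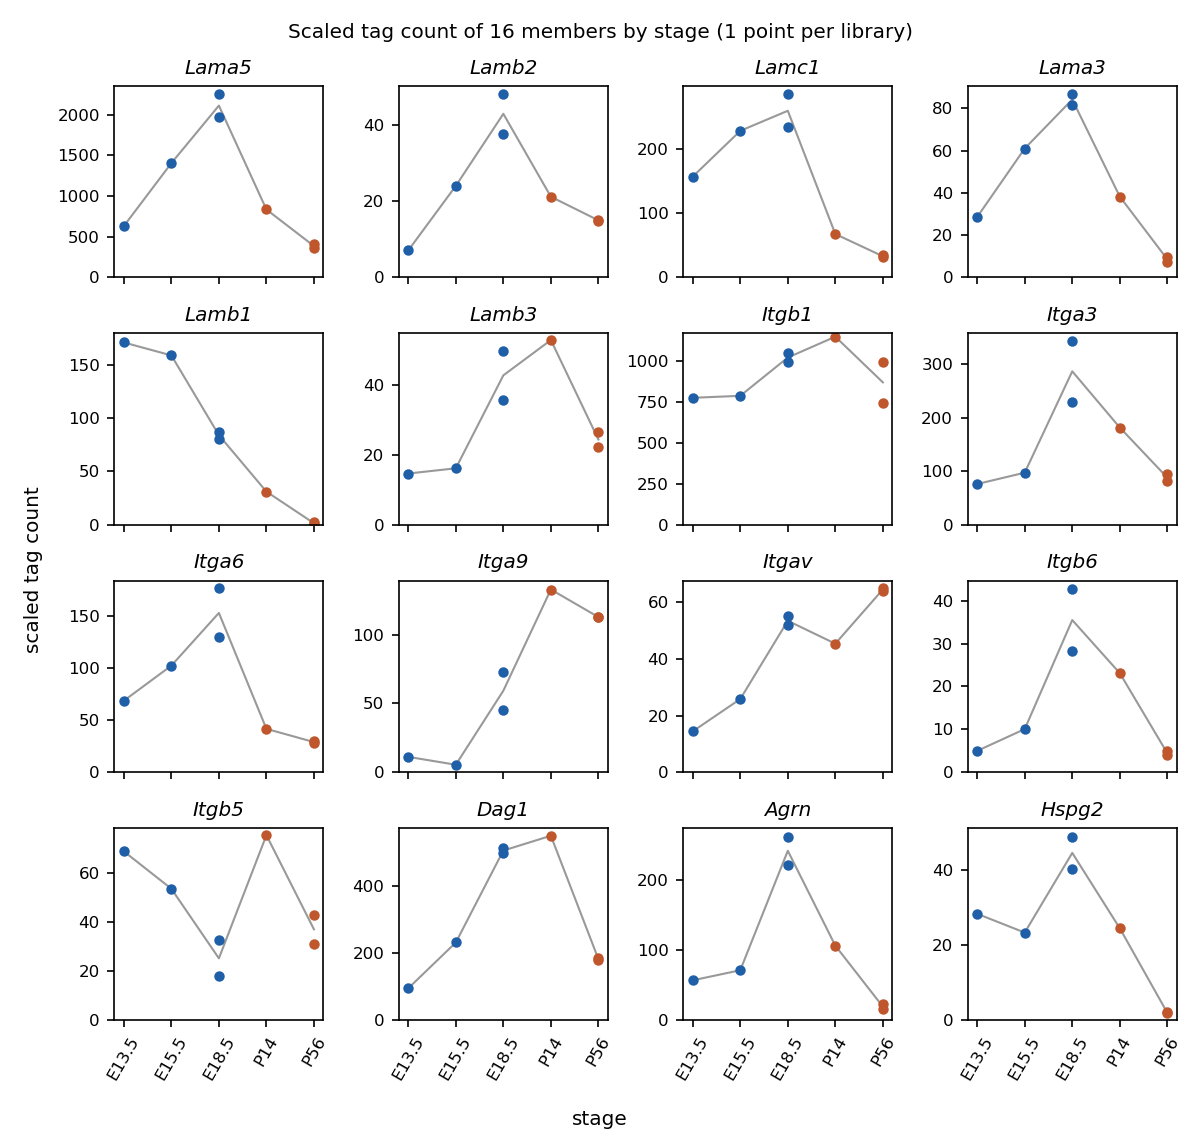
Scaled tag count (y axis, from 0, a separate scale per gene) of 16 members at the 5 stages (x axis), with 1 point per library, blue before and orange after birth, and a grey line through the stage means. Lama5, Lama3, Itga3, Itga6, Itgb6, Agrn and Hspg2 have both E18.5 libraries above every other library, Lamb1 is lower at each later stage, and Itga9 and Itgav stay high after birth.

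Promoters are shown for 4 members, 3 with the same calls at E18.5 and at P56, and Itgav, which shared only the call at E18.5. Of these members only Lama5 was also called at P14, where it was lower. Lama5, Agrn and Dag1 were higher at E18.5 than before and lower at P56, and Itgav was higher at E18.5 and not called between E18.5 and P56. The set of RefSeq promoters used here (GRCm38.p6) had an entry for 26 of the 39 members. Each run below is the 250 bases upstream of the most 5′ RefSeq start in that set, read 5′ to 3′ on the gene's strand. Capitals mark the GC box GGGCGG, a site of Sp and Klf factors, and CAAGTG, a core of the Nkx2-1 site, on either strand.
Lama5, chr2:180225860-180226109, minus strand: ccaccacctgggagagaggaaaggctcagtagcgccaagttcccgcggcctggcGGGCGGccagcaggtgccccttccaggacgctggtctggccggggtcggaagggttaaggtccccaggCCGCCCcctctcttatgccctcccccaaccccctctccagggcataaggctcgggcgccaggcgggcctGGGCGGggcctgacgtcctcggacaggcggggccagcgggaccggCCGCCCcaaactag
Agrn, chr4:156197489-156197738, minus strand: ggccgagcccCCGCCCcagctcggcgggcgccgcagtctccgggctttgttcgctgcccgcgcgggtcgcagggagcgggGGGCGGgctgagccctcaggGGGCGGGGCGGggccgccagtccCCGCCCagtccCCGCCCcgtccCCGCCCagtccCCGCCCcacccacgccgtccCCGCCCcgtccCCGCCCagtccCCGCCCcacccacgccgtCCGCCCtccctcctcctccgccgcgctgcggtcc
Dag1, chr9:108263959-108264208, minus strand: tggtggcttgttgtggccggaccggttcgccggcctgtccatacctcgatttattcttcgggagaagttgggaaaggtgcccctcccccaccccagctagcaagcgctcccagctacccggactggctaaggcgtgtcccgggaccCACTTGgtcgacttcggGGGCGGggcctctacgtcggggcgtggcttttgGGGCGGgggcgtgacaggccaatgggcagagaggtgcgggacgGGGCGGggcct
Itgav, chr2:83724147-83724396, plus strand: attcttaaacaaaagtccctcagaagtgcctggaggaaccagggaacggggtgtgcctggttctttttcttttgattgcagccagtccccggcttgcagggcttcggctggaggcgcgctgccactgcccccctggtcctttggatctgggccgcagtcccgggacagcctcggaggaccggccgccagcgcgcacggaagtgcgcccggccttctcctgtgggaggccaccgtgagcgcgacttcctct
The GC box occurred 4 times in the Lama5 run, 12 times in Agrn, 3 times in Dag1 and not in Itgav. These 4 do not stand for all members. Of the other members with a promoter that were higher at E18.5 and lower at P56, Itga3 had 3 and Itgb6 and Lamb2 had 0. Itgb5, lower at E18.5, had 3, and Itgb1, not called in any comparison, had 1. G and C made up 72.4% of the Lama5 run, 83.6% of Agrn, 67.6% of Dag1 and 64.4% of Itgav. Over the 26 members 12 promoters held a GC box, against 33.0% of 27025 promoters of the same length, and 5 held CAAGTG, against 11.6%. GGAATG, the core of the TEAD site, was found in 3, against 12.6%, and TGANTCA, the AP-1 site, in 0, against 6.85%. Both strands were searched, and overlapping matches were counted. A match describes letters in this window only, and binding was not measured.

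Among the laminin alpha chains, Lama5 (ENSMUSG00000015647.9; chromosome 2, 180176373 to 180225859, GRCm38/mm10) encodes the main alpha chain of mature epithelial basement membranes. Its value was 631 at E13.5 and 1404 at E15.5, 1965 and 2258 in the E18.5 pair, 834 at P14, and 363 and 408 in the P56 pair. Both E18.5 libraries lay above all others and both P56 libraries below all others. Lama5 rose 2.08-fold to E18.5 (ratio of means; log2 change 1.16, SE 0.174, limma adjusted p = 0.00312). Against E18.5 it was 2.53-fold lower at P14 (log2 change -1.33, SE 0.213, adjusted p = 0.0247). At P56 it stood 5.48-fold below the E18.5 level (log2 change of -2.45, SE 0.174, adjusted p = 0.000252). The call of the rise depends on the youngest library: without E13.5 the log2 change of E18.5 against E15.5 was 0.585 and was not called (adjusted p = 0.118). Against E13.5 alone the rise was 3.35-fold.

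Lama3 (chromosome 18, 12333819 to 12583013) encodes an alpha chain of the anchoring laminin of epithelia. Its values were 28.6 at E13.5 and 61.0 at E15.5, 86.6 and 81.8 in the E18.5 pair, 38.2 at P14, and 7.40 and 9.72 in the P56 pair. It was 9.84-fold lower at P56 than at E18.5 (log2 change -3.17, SE 0.257, limma adjusted p = 0.000434), after a 1.88-fold rise to E18.5 (adjusted p = 0.0259) that was not called without E13.5 (log2 change 0.458) or by DESeq2 (adjusted p = 0.083), and was 2.94-fold without E15.5. Lamb3 (chromosome 1), a beta chain of the same laminin, had 14.7, 16.1, 49.7 and 35.8, 52.8, and 22.2 and 26.6 in stage order. Lamb3 rose 2.77-fold to E18.5 (adjusted p = 0.0104), and at P56 its log2 change of -0.77 (95% interval -1.43 to -0.11) was not called (adjusted p = 0.118), and its highest value was in the P14 library, where Lama3 was below both E18.5 libraries. The difference between these chains was not tested. The annotated span of Lamb3 overlaps Hsd11b1 and G0s2.

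Lama1 (chromosome 17, 67697259 to 67822647), the alpha chain of early embryonic basement membranes, was found mostly in the youngest library. It had 32.8 (139 reads) at E13.5, 1.44 (4 reads) at E15.5, 0 reads in both E18.5 libraries, 2 reads at P14 and 0 reads in both P56 libraries. Against the early mean it was at least 30.01-fold lower at E18.5, with a floor of 3 reads over the E18.5 libraries (log2 change -3.18, SE 0.502, limma adjusted p = 0.00379). This value comes from 1 library: without E13.5 the gene no longer had enough reads to be tested.

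Lama4, an alpha chain best known from vessels and mesenchyme, had 8.98 at E13.5 and 31.9 at E15.5, 27.3 and 23.7 in the E18.5 pair, 12.7 at P14, and 5.98 and 2.27 in the P56 pair. It was not called between the early stages and E18.5 (log2 change 0.55, 95% interval -0.43 to 1.53), and it was 6.20-fold lower at P56 (log2 change -2.47, SE 0.418, adjusted p = 0.00921). The fold was 11.3 without the higher P56 library, and the gene was not called without robust variances (adjusted p = 0.0551). Lama2, the alpha chain of muscle, had 0 to 2 reads in each library.

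The beta chains differed in course. Lamb1 (ENSMUSG00000002900.16; chromosome 12, 31265234 to 31329644) encodes the beta chain of the laminins present from early development. It stood at 171 at E13.5 and 159 at E15.5, 80.8 and 87.4 in the E18.5 pair, 31.1 at P14, and 2.56 and 0.324 in the P56 pair, where the libraries held 9 reads and 1 read. No library of a later stage reached the value of any library of an earlier stage. Lamb1 was 58.3-fold lower at P56 than at E18.5 (log2 change -5.29, SE 0.446, limma adjusted p = 0.00053), with 260-fold and 32.9-fold when the first or the other P56 library was left out. The step from the early stages to E18.5 had a log2 change of -0.96 and was not called (adjusted p = 0.146; 0.0305 with edgeR). Lamb2 (chromosome 9, 108479736 to 108490530), the beta chain that takes its place in many mature basement membranes, had 7.09, 24.0, 37.7 and 48.2, 21.2, and 15.1 and 14.9 in stage order. Lamb2 rose 2.76-fold to E18.5 (adjusted p = 0.00553; 1.79-fold and not called without E13.5, 6.06-fold without E15.5) and was 2.87-fold lower at P56 (adjusted p = 0.0154). At P56 it stood at 34.9% of its highest stage mean, and Lamb1 at 0.843% of its own.

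Lamc1 (chromosome 1, 153218922 to 153332786) encodes the gamma chain shared by most laminins. Its values were 157 at E13.5 and 228 at E15.5, 285 and 233 in the E18.5 pair, 67.4 at P14, and 31.3 and 34.3 in the P56 pair. Every library before birth lay above every library after it. The change from the early stages to E18.5 was not called (log2 change 0.45, 95% interval -0.04 to 0.93), and Lamc1 was 3.84-fold lower at P14 (log2 change -1.92, SE 0.254, limma adjusted p = 0.0137) and 7.89-fold lower at P56 (log2 change -2.94, SE 0.207, adjusted p = 0.000249). Summed over the 11 laminin rows, the value was 1111 at E13.5 and 2077 at E15.5, 2876 and 3104 in the E18.5 pair, 1180.5 at P14, and 522 and 584 in the P56 pair. Without Lama5 it was 480.2, 673, 910.1 and 847, 346, and 159.6 and 177, so the other chains together were also highest in the E18.5 pair and lowest in the P56 pair.

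The heat map of stage means sets these courses beside each other, each gene against its own highest stage.

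**Figure D2:**
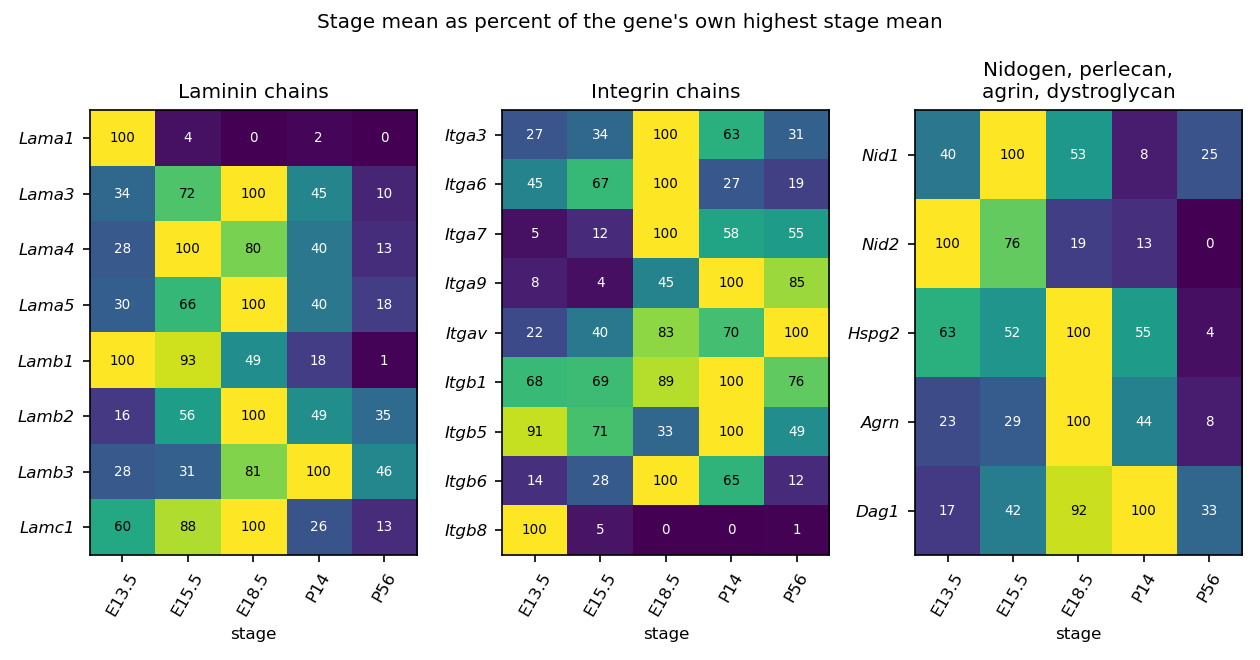
Mean value at each stage (columns) as a percent of the highest stage mean of the same gene (rows), for 8 laminin chains, 9 integrin chains and 5 other members; the colour scale runs from 0 to 100 percent. Lama1, Lamb1, Nid2 and Itgb8 have their highest mean at E13.5, 4 of the 8 laminin chains at E18.5, and Itga9, Itgb1, Itgb5, Lamb3 and Dag1 at P14; E13.5, E15.5 and P14 are single libraries.

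Of the proteins that link laminin to the rest of the sheet, Agrn (ENSMUSG00000041936.18; chromosome 4, 156165290 to 156197488) is a proteoglycan that binds laminin and dystroglycan. It had 56.2 at E13.5 and 70.7 at E15.5, 262 and 222 in the E18.5 pair, 106 at P14, and 21.6 and 15.2 in the P56 pair. Agrn rose 3.81-fold to E18.5 (log2 change 1.92, SE 0.248, limma adjusted p = 0.00165) and was 13.1-fold lower at P56 (log2 change -3.66, SE 0.248, adjusted p = 0.000221). At P14 its log2 change of -1.18 against E18.5 was not called (adjusted p = 0.0956; 0.0317 with edgeR). Hspg2 (chromosome 4, 137468769 to 137570630), the perlecan gene, had 28.4, 23.3, 40.4 and 49.0, 24.5, and 1.99 and 1.62 in stage order, the last on 7 and 5 reads. From E18.5 to P56 it was 24.8-fold lower (log2 change -4.02, SE 0.298, adjusted p = 0.000286), and its log2 change of 0.77 from the early stages to E18.5 was not called (adjusted p = 0.0928). Nid1 and Nid2, the nidogens that bridge laminin and type IV collagen, had at most 10 and 26 reads in a library. Nid2 was called lower at E18.5 (log2 change -1.57, adjusted p = 0.048) with limma and not with edgeR (adjusted p = 0.128), and the last 1000 bases of its annotated span overlap Rtraf. Nid1 was not called in any of the 3 comparisons.

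Dag1 (ENSMUSG00000039952.15; chromosome 9, 108204634 to 108263958) encodes both subunits of dystroglycan. It had 93.6 at E13.5 and 231 at E15.5, 512 and 499.97 in the E18.5 pair, 550.5 at P14, and 184 and 177 in the P56 pair. The E18.5 and P14 libraries lay together above all others. Dag1 rose 3.12-fold to E18.5 (log2 change 1.78, SE 0.174, limma adjusted p = 0.000511), and 5.41-fold without E15.5. It was 2.80-fold lower at P56 (log2 change -1.48, SE 0.174, adjusted p = 0.00215), and at P14 the log2 change against E18.5 was 0.12 (95% interval -0.38 to 0.62).

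Among the integrin chains of laminin receptors, the alpha chains Itga3, Itga6 and Itga7 were called and the beta chain Itgb1 was not. Itgb1 (ENSMUSG00000025809.15; chromosome 8, 128685654 to 128733200) encodes the beta chain that partners most alpha chains. Its values were 777, 789, 993 and 1053, 1151, and 996 and 747 in stage order. It was not called in any comparison, with log2 changes of 0.39 to E18.5 (95% interval -0.07 to 0.84), -0.25 at P56 (-0.70 to 0.21) and 0.17 at P14 (-0.39 to 0.73). The P56 libraries differed by more than the early stages did.

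Itga3 (ENSMUSG00000001507.16; chromosome 11, 95044474 to 95076801), the alpha chain of the main laminin receptor of lung epithelium, had 76.1 at E13.5 and 97.2 at E15.5, 229 and 344 in the E18.5 pair, 182 at P14, and 94.8 and 81.3 in the P56 pair. Both E18.5 libraries were above all others, and they also lay apart from each other (mean 286.5, SD 81.2). Itga3 rose 3.31-fold to E18.5 (log2 change 1.69, SE 0.246, limma adjusted p = 0.00271) and was 3.26-fold lower at P56 (adjusted p = 0.0056). Itga6 (chromosome 2, 71745616 to 71858416), which binds laminin with Itgb1 or Itgb4, had 68.5, 102, 129 and 176, 41.5, and 29.9 and 27.9 in stage order. It rose 1.79-fold to E18.5 (adjusted p = 0.0353), and this was not called without E13.5 (log2 change 0.558), without robust variances or by DESeq2 (adjusted p = 0.0664). All 4 libraries before birth lay above the 3 after it, and Itga6 was 3.68-fold lower at P14 (log2 change -1.84, SE 0.292, adjusted p = 0.0243) and 5.29-fold lower at P56 (adjusted p = 0.00115). Itgb4, whose protein pairs with Itga6 in hemidesmosomes, had 0 to 10 reads in each library and was not tested.

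Itga7, another laminin-binding alpha chain, best known from muscle, had 0.945 (4 reads), 2.51, 15.8 and 25.6, 12.1, and 6.83 and 15.9 in stage order. It was 12.0-fold higher at E18.5 than in the early mean (log2 change 3.02, SE 0.479, limma adjusted p = 0.00396; 21.9-fold without E15.5), and the P56 libraries overlapped those of E18.5. The last 1000 bases of its annotated span overlap Mettl7b, and the sources used here do not give whether tags were counted by strand.

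Itga9 was not lower after birth. This gene (ENSMUSG00000039115.13; chromosome 9, 118606690 to 118901003), whose chain pairs with Itgb1 and binds tenascin and other matrix and cell surface proteins, had 11.1 at E13.5, 5.38 at E15.5, 45.4 and 73.1 in the E18.5 pair, 133 at P14, and 113 in each P56 library. Every library from E18.5 on lay above the early ones, and every postnatal library above those of E18.5. Itga9 was 7.19-fold higher at E18.5 than in the early mean (log2 change 2.74, SE 0.284, limma adjusted p = 0.000666; 11.0-fold without E13.5). Its further log2 changes of 0.96 at P56 (95% interval 0.29 to 1.62, adjusted p = 0.067; 0.0497 with edgeR) and 1.19 at P14 (adjusted p = 0.126) were not called by limma. The predicted gene Gm2415 overlaps the last 1000 bases of its span. The alpha chains of collagen, fibronectin and some other matrix receptors had few reads: Itga1 had 2 to 28 reads per library, Itga4 1 to 13, Itga5 0 to 12, Itga8 3 to 20 and Itga10 0 to 17. Of these Itga10 was called at P56 against E18.5 (log2 change -2.38, limma adjusted p = 0.017), with 11 reads in each E18.5 library and none in either P56 library. As a ratio of means it was at least 9.22-fold lower, with a floor of 3 reads over the P56 libraries. Itgal, the alpha chain of a leukocyte integrin, had 0 to 12 reads.

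The alpha v integrins bind RGD motifs, and those with Itgb6 or Itgb8 are known to activate latent TGF-beta. Itgav (chromosome 2, 83724397 to 83806916) had 14.4 at E13.5 and 25.8 at E15.5, 52.0 and 55.0 in the E18.5 pair, 45.4 at P14, and 64.0 and 65.1 in the P56 pair. It rose 2.66-fold to E18.5 (log2 change 1.42, SE 0.229, limma adjusted p = 0.00406). Its change from E18.5 to P56 was 0.27 on the log2 scale (95% interval -0.27 to 0.80). The beta chains that can join it differed in course. Itgb8 (chromosome 12) had 26.5 (112 reads) at E13.5, 4 reads at E15.5, 0 in both E18.5 libraries and 1 read in all later libraries together. As a ratio of means it was at least 24.4-fold lower at E18.5 than before, with a floor of 3 reads, a bound that comes from the E13.5 library. The limma test, on log2(value + 1), gave a log2 change of -3.03 (adjusted p = 0.00518). Itgb6 (chromosome 2, 60598292 to 60722643), an epithelial beta chain, had 4.96, 10.05, 42.7 and 28.3, 23.1, and 3.98 and 4.86 in stage order. Itgb6 rose 4.73-fold to E18.5 (log2 change 2.14, SE 0.344, adjusted p = 0.00412; 7.15-fold without E15.5) and was 8.03-fold lower at P56 (log2 change -2.73, SE 0.344, adjusted p = 0.003). Itgb5 (chromosome 16, 33829665 to 33949338), a vitronectin receptor chain, had 68.8, 53.5, 32.3 and 17.7, 75.4, and 31.0 and 42.8. Itgb5 was 2.44-fold lower at E18.5 than in the early mean (log2 change -1.30, SE 0.336, adjusted p = 0.0256), a call that was lost without E13.5 (log2 change -1.13, adjusted p = 0.104) and without robust variances. At P14 its mean ratio to E18.5 was 3.01, on 1 library, and was not called by limma (adjusted p = 0.0939; 0.0404 with edgeR). Itgb3 had 1 to 9 reads in each library but P14, where it had 30.

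The plot of log2 changes gives the interval of 29 of the 30 tested members.

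**Figure D3:**
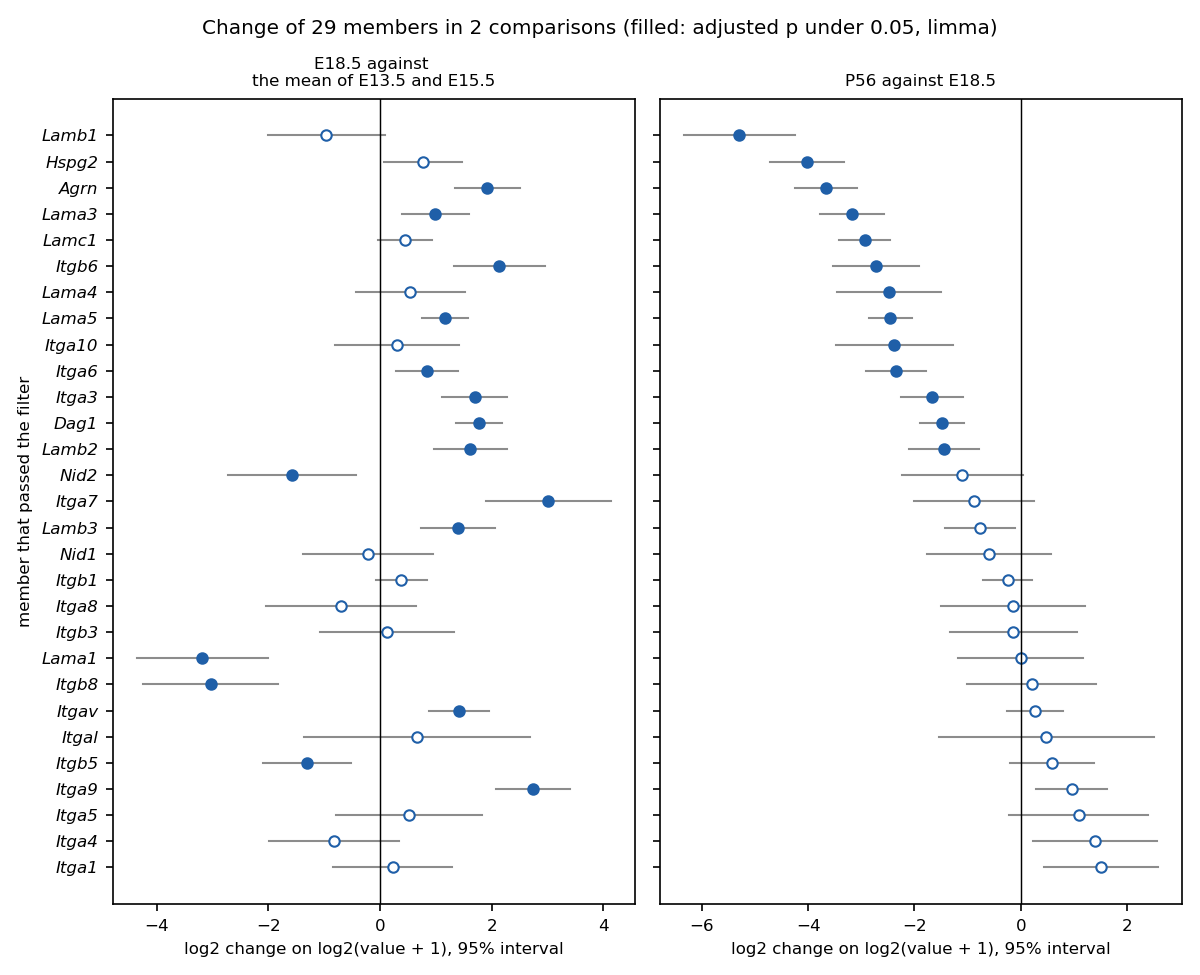
Log2 change on log2(value + 1) (x axis) with its 95% interval for 29 tested members (y axis, ordered by the P56 change); filled points have an adjusted p under 0.05 with limma. At P56 against E18.5, 13 filled points lie below 0, and 12 filled points lie above 0 and 4 below 0 at E18.5 against the early stages.

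At P14 against E18.5, with 1 library on the postnatal side, 4 members were lower, against 1.24% of all genes tested, and none was higher with limma, against 1.87%, where 3 were higher at an unadjusted p under 0.05. Lama5, Lamc1 and Itga6 were among the 4 lower members. A fit without robust variances called 0 members lower, and 3 of all genes tested, beside 161 in the main fit. The P14 and P56 comparisons share the E18.5 libraries. For Agrn, Hspg2, Dag1 and Lamb1 the P14 library lay between those of E18.5 and P56 or above them, at 43.8%, 54.8%, 100.0% and 18.2% of the highest stage mean, and P56 at 7.61%, 4.04%, 32.9% and 0.843%. The step from P14 to P56 was not tested.

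A count test, edgeR's quasi-likelihood test on the recovered reads, gave like counts of members. It called 13 higher, against 17.9% of all genes, and 4 lower, against 12.9%, at E18.5 against the early stages, with Lamb1 in the place of Nid2 among the lower ones. At P56 against E18.5 it called 1 higher, Itga9, against 8.28%, and 14 lower, against 7.89%, the latter the same 14 genes as limma. At P14 against E18.5 it called 1 higher, Itgb5, against 3.16%, and 5 lower, against 2.13%, Agrn being the one that limma did not call.

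Further genes of the basement membrane and of integrin signalling were followed in 6 lists, which the plot of called shares shows beside the members. The hemidesmosome list also holds the members Itga6 and Itgb4. Over all genes tested, 15.8% were higher and 13.4% lower at E18.5 against the early stages, and 8.07% and 6.15% at P56 against E18.5; named genes are the called ones of smallest p in each list. Of 23 tested basement membrane collagens and other components, 14 were lower at P56 than at E18.5 and 3 higher (median log2 change -1.88). Col4a1, the most widespread type IV collagen chain, had 1477 and 1609 at E18.5 and 399 and 439 at P56 (log2 change -1.88, limma adjusted p = 0.000678). Pxdn, the peroxidase that crosslinks type IV collagen, went from 58.1 and 86.7 to 0 reads in both P56 libraries (adjusted p = 0.000117), and Fras1, a protein of the embryonic epithelial basement membrane, from 27.7 and 32.4 to 0.285 and 0 (adjusted p = 0.000346). Col4a6 went from 18.9 and 32.8 to 0.854 and 1.62 (adjusted p = 0.00142). From the early stages to E18.5, 6 of the 23 were higher and 5 lower. Tinagl1, a matrix glycoprotein, rose from 6.62 and 16.1 to 145 and 164 (adjusted p = 0.000131). Col4a3 and Col4a4, chains of the type IV collagen of thin barriers, rose from 0.473 and 15.4 to 135 and 152 and from 1.65 and 11.1 to 53.5 and 47.8 (adjusted p = 0.000212 and 0.00031), while Col18a1, whose chain gives rise to endostatin, was lower at E18.5, at 129 and 143 after 1547 and 2047 (adjusted p = 0.000358). Col4a3 is also a type 1 cell marker. Sparc, a collagen-binding matrix protein, was at 6842 and 7811 at E18.5 and 18109 at P14 (log2 change 1.31, adjusted p = 0.0284), with 2593 and 3289 at P56. Col7a1, the anchoring fibril collagen, was also higher at P14, at 42.9 after 6.54 and 10.2 (adjusted p = 0.0396), where Pxdn was at 12.1 (adjusted p = 0.0322) and Col15a1 had 0 reads after 15.4 and 6.03 (adjusted p = 0.0398).

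Among 34 tested integrin adaptors and focal adhesion genes, 16 were higher at E18.5 than in the early stages and 2 lower (median log2 change 0.899), and at P56 against E18.5, 10 were lower and 1 higher (median -0.493). Tns1, a tensin that links integrins to actin, rose from 23.4 and 89.3 to 685 and 766 (limma adjusted p = 2.03e-05). Cav1, the caveolar coat protein and also a type 1 cell marker, rose from 0.945 and 20.8 to 181 and 149 (adjusted p = 6.96e-05) and stood at 5.98 and 4.53 at P56 (adjusted p = 0.00013). Kank2, an adhesion adaptor, rose from 11.6 and 103 to 241 and 230.2 (adjusted p = 0.000167), and Cd9, a tetraspanin, from 26.2 and 82.2 to 341.5 and 321 (adjusted p = 0.000331). Lims1 and Vcl, which encode the adaptors PINCH and vinculin, were lower at P56, at 47.0 and 47.3 after 144 and 161 (adjusted p = 0.0025) and at 23.3 and 24.0 after 67.0 and 74.2 (adjusted p = 0.00662), and Lims2, a relative of Lims1, at 0 and 0.972 after 13.1 and 14.3 (adjusted p = 0.00672). Of the 5 tested hemidesmosome genes, Dst, Plec and Itga6 were higher and Cd151 lower at E18.5 than before, and at P56 Itga6 was lower and Cd151 and Dst were higher: Cd151, a tetraspanin partner of laminin-binding integrins, had 61.2 and 51.6 in the E18.5 pair, 293 at P14, and 201 and 164 in the P56 pair (adjusted p = 0.00315 for P56). Dst, a linker to keratin filaments, went from 100.5 and 105 to 185 and 194 (adjusted p = 0.0303), and Plec, plectin, rose from 20.8 and 31.9 to 68.9 and 93.8 at E18.5 (adjusted p = 0.00373).

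Of 18 tested integrin ligands other than laminins, 8 were lower at P56 than at E18.5 and the other 10 were not called (median log2 change -1.05), and 6 were higher and 1 lower at E18.5 against the early stages (median 0.549). Icam1, a ligand of leukocyte integrins, rose from 792 and 1291 to 5150.1 and 5426 (adjusted p = 9.17e-05), and Cdh1, E-cadherin, from 104 and 172 to 255 and 286 (adjusted p = 0.00723). Ctgf, a matricellular protein, rose from 206 and 345 to 793 and 900.5 (adjusted p = 0.000841) and stood at 287 at P14 and at 45.5 and 42.1 at P56 (adjusted p = 0.0196 and 5.45e-05). Npnt, nephronectin, a basement membrane ligand of the alpha8 integrin, had 38.5, 178, 533 and 692, 557, and 122 and 134 in stage order (adjusted p = 0.000154 to E18.5 and 0.000737 at P56). Fn1, fibronectin, was at 33.5 and 23.4 at E18.5 and at 1.14 and 0.972 at P56 (adjusted p = 0.000672), and Col1a1 at 23.1 and 41.4 and at 1.14 and 0.648 (adjusted p = 0.00112). At P14 Mfge8, an RGD ligand, was higher at 1123.5 after 447 and 457 (adjusted p = 0.0243), and Cyr61, a relative of Ctgf, lower at 252 after 583 and 520.3 (adjusted p = 0.0445). Of 26 tested dystroglycan partners and glycosylation genes, 4 were higher and 3 lower at E18.5 than before, and 1 was higher and 1 lower at P56 (medians -0.16 and 0.111), that is 15.4% and 11.5%, and 3.85% each, close to or below the shares over all genes. Utrn, utrophin, the link from dystroglycan to actin outside muscle, rose from 115 and 208 to 423 and 449.9 (adjusted p = 0.00102). Pomk, a kinase of that sugar chain, rose from 24.8 and 28.0 to 69.7 and 57.6 (adjusted p = 0.00977), and Sntb1, a syntrophin, from 3.78 and 10.05 to 22.7 and 14.3 (adjusted p = 0.0221). Sntb2, another syntrophin, rose from 37.7 and 28.6 to 112 and 134 at P56 (adjusted p = 0.00328). Gyltl1b, which extends the laminin-binding sugar of dystroglycan, fell from 37.7 and 50.9 to 7.68 and 10.7 at P56 (adjusted p = 0.00462). Of 16 tested proteases and inhibitors, 7 were higher and 1 lower at E18.5 than before, and 2 were lower and 2 higher at P56 (medians 0.673 and -0.177), that is 43.8% and 6.25%, and 12.5% each. Mmp14, a membrane-bound matrix protease, had 514, 1303, 1728 and 2013, 678, and 198 and 162 in stage order (adjusted p = 0.00396 to E18.5 and 0.000115 at P56). Timp3, an inhibitor bound to the matrix, rose from 52.0 and 92.9 to 393 and 369 and stood at 77.7 and 87.8 at P56 (adjusted p = 0.000214 and 0.000579). Tmprss2, a membrane serine protease, rose from 9.92 and 2.51 to 20.02 and 24.1 (adjusted p = 0.00438). Adamts1 and Mmp15 were higher at P56, at 54.1 and 65.7 after 18.9 and 10.9 (adjusted p = 0.00813) and at 43.5 and 42.4 after 6.54 and 1.13 (adjusted p = 0.00855). At P14 against E18.5, 3 of the 23 basement membrane components were higher and 4 lower, 1 of the 18 ligands was higher and 2 lower, 2 of the 16 proteases and inhibitors, Mmp14 and Timp3, were lower, 1 of the 5 hemidesmosome genes was higher (Cd151, adjusted p = 0.00686) and 1 lower (the member Itga6), and the 34 adaptors and 26 dystroglycan genes were not called.

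**Figure D4:**
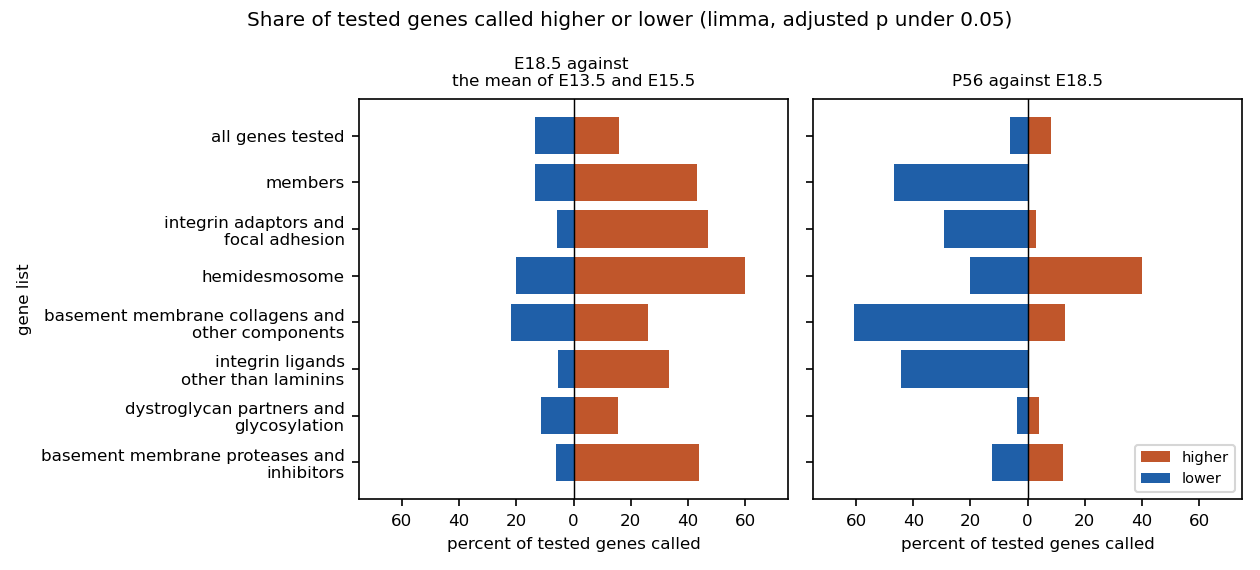
Percent of tested genes called higher (orange, right) or lower (blue, left) with limma at an adjusted p under 0.05, for all genes tested, the members and 6 lists (y axis), in 2 comparisons. At P56 against E18.5 the members have 46.7% lower and none higher, and the basement membrane collagens and other components 60.9% lower, beside 6.15% of all genes.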

How the data were processed

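Sorted mouse lung epithelium was measured by 3' SAGE sequencing in 7 libraries of 5 stages. The deposited values are a signal, tag counts per gene that the authors divided by 1 factor per library; the submitters' processing notes name the mm10 build, Bowtie2 2.2.5 and R 3.4.0, and the counting program and its use of strand are not given in the sources used here. Dividing by the smallest step gave whole reads within 0.01 for 100% of values. Genes passed a filter on these reads by stage (filterByExpr of edgeR 4.0.16), and limma 3.58.1 (R 4.3.3) was fitted to log2(value + 1) with robust variances, 1 coefficient per stage and 2 residual degrees of freedom. Precision rests on the 2 libraries each at E18.5 and P56. edgeR and DESeq2 1.42.0 were fitted to the reads as alternatives, beside other pseudocounts, filters and scalings. Scripts were tested on simulated data. Gene positions are those of GENCODE on GRCm38, and 39 of 39 members were located. Values are given in full for members called in a comparison with a stage mean of at least 20, and for up to 4 called genes of smallest p per list and comparison. A few genes are counted in the totals but not reported here by themselves. The members and lists were chosen with earlier results of these data known. Floors of 3 reads cover counting error only. The 95% intervals are those of the limma fit. They rest on the spread between libraries, with the variance of each gene drawn toward the trend over all genes.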

Additional observations from a re-analysis of the deposited data

How the results depend on the processing

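No member value changed sign with a call under the alternatives run. Of the values of members called in the main fit, 421 kept their side of the threshold and 203 lost it. Members not called in the main fit were left out, so gained calls are not counted. The limma fits with E18.5 or P56 reduced to 1 library, which called no gene, are among the losses. With no filter on low values, limma called 8 members higher at E18.5 against the early stages (13 with the filter), 8 lower at P56 (14), 1 higher at P14 (0) and 1 lower at P14 (4). Over all genes the counts were 1352 (2043 with the filter), 324 (797), 816 (242) and 235 (161) in the same order. Of the 8 members higher at E18.5 and the 8 lower at P56, 7 each were also called in the main fit. The 1 lower at P14 was not among the 4 of the main fit. TMM scaling and DESeq2 left each count within 1.5 times. Without robust variances 0 members were lower at P14, and 3 of all genes tested, beside 161 in the main fit. A pseudocount of 5 and edgeR each gave 1 member higher at P56, and edgeR 1 higher at P14. A fit with the replicate block gave 2 lower at E18.5, 0 lower at P14, 10 higher at E18.5 and 12 lower at P56. Over all genes it called 772, 9, 1121 and 415 in the same order, beside 1736, 161, 2043 and 797 in the main fit. Deviations of libraries with the same replicate number had a correlation of -0.037 over 6807 genes, and the labels do not say what the number marks. Leaving out 1 library in turn, limma gave 0 to 13 higher and 0 to 3 lower at E18.5, and 0 lower at P56 and P14. With E18.5 or P56 reduced to 1 library, 1 residual degree of freedom was left and it called no gene at all; without E13.5 or E15.5, with 2 left, it gave 9 and 13 higher and 0 and 3 lower. edgeR, run in this way after the data were seen, gave 8 to 14 higher and 0 to 4 lower at E18.5, 0 to 1 higher and 13 to 15 lower at P56, and 0 to 2 higher and 6 to 9 lower at P14 (9 and 7 without the E18.5 libraries 1 and 2). In the edgeR fits without an E18.5 library, calls over all genes tested at P14 rose as well, in both directions. The counts of 9 and 7 lower members are thus not particular to the members, and these fits set 1 library against 1. For the 9 members with too few reads to be tested, among them Itgb4, a change was not detectable at this depth.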
